A study of Mus musculus with 4 samples.

Results

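The genes described are those of the glutathione, thioredoxin and NRF2 redox systems in mouse macrophages, 77 of the 23259 gene symbols that carry a value. They were chosen by name: every symbol that begins with Gst and a letter, Mgst, Gpx, Prdx, Txn or Glrx, together with Gclc, Gclm, Gss, Gsr, Glo1, Nfe2l2, Keap1, Nqo1, Srxn1, Sod1, Sod2 and Cat. The rule uses names alone, and it was drawn up with earlier results of these data known. The RNA came from bone marrow-derived macrophages of C57BL/6 mice aged 7 weeks, cultured from marrow and given the cytokine IL-4 for 24 hours. The genotype labels are wild type and Sema6D-/-, a loss of the transmembrane semaphorin Sema6D, with 2 libraries each, and every library had received IL-4. The labels give neither the design of the Sema6D allele nor a library without IL-4. They do not say whether the libraries of a label came from separate mice or cultures, and p-values therefore reflect nothing more than how far these 4 libraries vary, possibly for technical reasons.

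Glutathione is a tripeptide that glutamate-cysteine ligase (Gclc, Gclm) and glutathione synthetase (Gss) build and that glutathione reductase (Gsr) returns to its reduced form with NADPH. Glutathione peroxidases (Gpx) use it to reduce peroxides, transferases (Gst, Mgst) attach it to electrophiles, and glutaredoxins (Glrx) use it to reduce protein disulfides. The thioredoxins (Txn), kept reduced by thioredoxin reductases (Txnrd), serve most peroxiredoxins (Prdx), the abundant thiol peroxidases of the cell, and sulfiredoxin (Srxn1) repairs peroxiredoxins that have been over-oxidized. Superoxide dismutases (Sod) make hydrogen peroxide from superoxide, and catalase (Cat), a peroxisomal heme enzyme, decomposes it without glutathione or thioredoxin. NRF2, encoded by Nfe2l2, switches on many of these genes through the antioxidant response element in their promoters, and KEAP1 holds it in check by marking it for degradation. Macrophages both make oxidants with the phagocyte NADPH oxidase and carry high levels of these defences.

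Depth was similar between labels. Its estimate, read from the steps between low values, was 9400000 and 9500000 fragments for wild type and 8500000 and 8800000 for Sema6D-/-. Over the 10115 genes tested, libraries of 1 label correlated at 0.9732 and 0.9693, and libraries of different labels at 0.9545 to 0.9604. Sema6d itself lay at 0.166 and 0.389 FPKM (fragments scaled by transcript length and library size) in the wild type libraries and 0.106 and 0.315 in the Sema6D-/- libraries. Its groups overlapped, and at these few fragments it does not check the labels. Samples titled K carry the wild type label and samples titled W the Sema6D-/- label, and directions are stated by genotype label throughout. Were the labels exchanged, each direction and sign below would turn, so that 3 redox genes would be higher and 10 lower, and each p-value would stay as it is. All 8 macrophage markers examined were detected, with summed levels of 5685 and 5968 FPKM in wild type and 5403 and 5413 FPKM in Sema6D-/-. They did not move together: Emr1 was higher (332 against 470.2 FPKM), Itgam (294 against 212 FPKM) and Lyz2 (3199 against 2483 FPKM) were lower, and so was the dendritic cell marker Itgax (404 against 312 FPKM; means of wild type against Sema6D-/-). The neutrophil list (14 genes, 12 tested) summed to 294 and 273 FPKM in wild type and 812 and 673 FPKM in Sema6D-/-, with 6 genes higher, 2 (Csf3r and Mmp9) lower and none of the 14 at 0 in every library. The eosinophil, basophil and mast cell list (7 genes found) summed to 1.93 and 1.49 FPKM in wild type and 12.4 and 7.08 FPKM in Sema6D-/-, and both of its tested genes, Prg2 and Mcpt8, were higher. The 9 erythroid markers found summed to between 0.686 and 2.02 FPKM in any library, with Hba-a2 the highest at 0.297 to 1.23 FPKM. The part of these other cells in the redox results was not tested, and in bulk RNA fewer cells of a type and less RNA per cell cannot be told apart.

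Because NRF2 acts through a short promoter element, the promoters were read first. The core of the antioxidant response element, TGACNNNGC on either strand, occurred in the window from 250 bases before to 50 bases after the start site in 13 of the 66 members with a window (19.7%). It occurred in 3781 of 27025 genes of all kinds (14.0%) and in 1291 of the 7349 tested genes with a window (17.6%). A gene can have several windows, 1 for each annotated start: 13 of the 89 windows of members (14.6%) and 4071 of all 32851 windows (12.4%) held a match. The 6 stretches shown are those of the master regulator itself, of Gclm, Prdx1 and Txnrd1, and of Srxn1 and Mgst1, whose levels are described below. They are from RefSeq, build GRCm38.p6, written 5′ to 3′ on the strand of the gene, with the match in capitals. On the printed strand, GCNNNGTCA is the same element read from the other strand.
Nfe2l2: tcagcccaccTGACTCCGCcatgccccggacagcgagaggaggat
Gclm: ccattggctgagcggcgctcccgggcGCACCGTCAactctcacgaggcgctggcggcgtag
Prdx1: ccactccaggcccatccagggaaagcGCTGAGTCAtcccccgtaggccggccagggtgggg
Txnrd1: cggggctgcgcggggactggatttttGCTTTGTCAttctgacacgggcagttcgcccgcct
Mgst1: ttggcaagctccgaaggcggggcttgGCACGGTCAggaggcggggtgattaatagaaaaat
Srxn1: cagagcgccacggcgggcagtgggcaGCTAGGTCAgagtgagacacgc
The Nfe2l2 stretch is chr2:75704869-75704913 on the minus strand, with its match 232 to 240 bases before the start site. The others are on the plus strand. The Gclm stretch (chr3:122245397-122245457) has its match 126 to 134 bases before the start and that of Prdx1 (chr4:116685440-116685500) 125 to 133 bases before it. In Txnrd1 (chr10:82859088-82859148) the match lies 84 to 92 bases and in Mgst1 (chr6:138140445-138140505) 48 to 56 bases before the start, while in Srxn1 (chr2:152105526-152105573) it lies 28 to 36 bases after it. The Txnrd1 start is 1 of 3 annotated for that gene and lies 25255 bases inside it, Mgst1 has 2 starts, and the other four genes have 1 each. The remaining members with a match were Gsta3, Gstm5, Gstm7, Sod1, Txndc11, Txndc2 and Txndc5. Of these 13 members 11 were tested, and Srxn1 and Txndc11 were the only ones called. Beside this, 23.2% of all tested members and 9.72% of all genes tested were called. A match is a description of letters and no evidence of binding, and a promoter without one may hold the element outside this window.

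Of the 77 members, 56 averaged 1 FPKM or more and were tested. Called means an adjusted p under 0.05 in limma, a linear model with moderated variances, over all 10115 genes. In the Sema6D-/- libraries 10 members were higher: Cat, Gpx3, Gpx4, Gstk1, Gsr, Srxn1, Prdx6, Txndc11, Gstp1 and Gstm1. Glo1, Glrx and Prdx5 were lower, and 43 tested members did not pass. The share called higher was 17.9% of the tested members beside 4.8% of all genes tested, and the share called lower was 5.36% beside 4.91%. In either direction 23.2% of members and 9.72% of all genes were called. The members were on average well expressed. Among genes averaging 10 FPKM or more, 8 of 41 members were higher and 3 lower, beside 6.19% higher and 5.71% lower of 5868 genes. The libraries of the labels did not overlap for 37 of the 56 members (66.1%), beside 56.2% of all genes. The median difference of the members, Sema6D-/- minus wild type on the log2(FPKM + 1) scale, was 0.07 beside 0.00 over all genes, and the median size of the difference regardless of sign was 0.19 beside 0.11. All members together summed to 8352 and 8454 FPKM in wild type and 8237 and 8819 FPKM in Sema6D-/-, so the total overlapped between labels while single members moved apart. These shares rest on all 4 libraries. With wild type 1 left out 4 members were higher and 4 lower, without wild type 2 it was 6 and 2, without Sema6D-/- 1 it was 1 and 0, and without Sema6D-/- 2 it was 1 and 1. The calls over all genes went from 983 to 546, 536, 159 and 276 in the same order. Cat was the 1 member called in each of these fits.

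**Figure D1:**
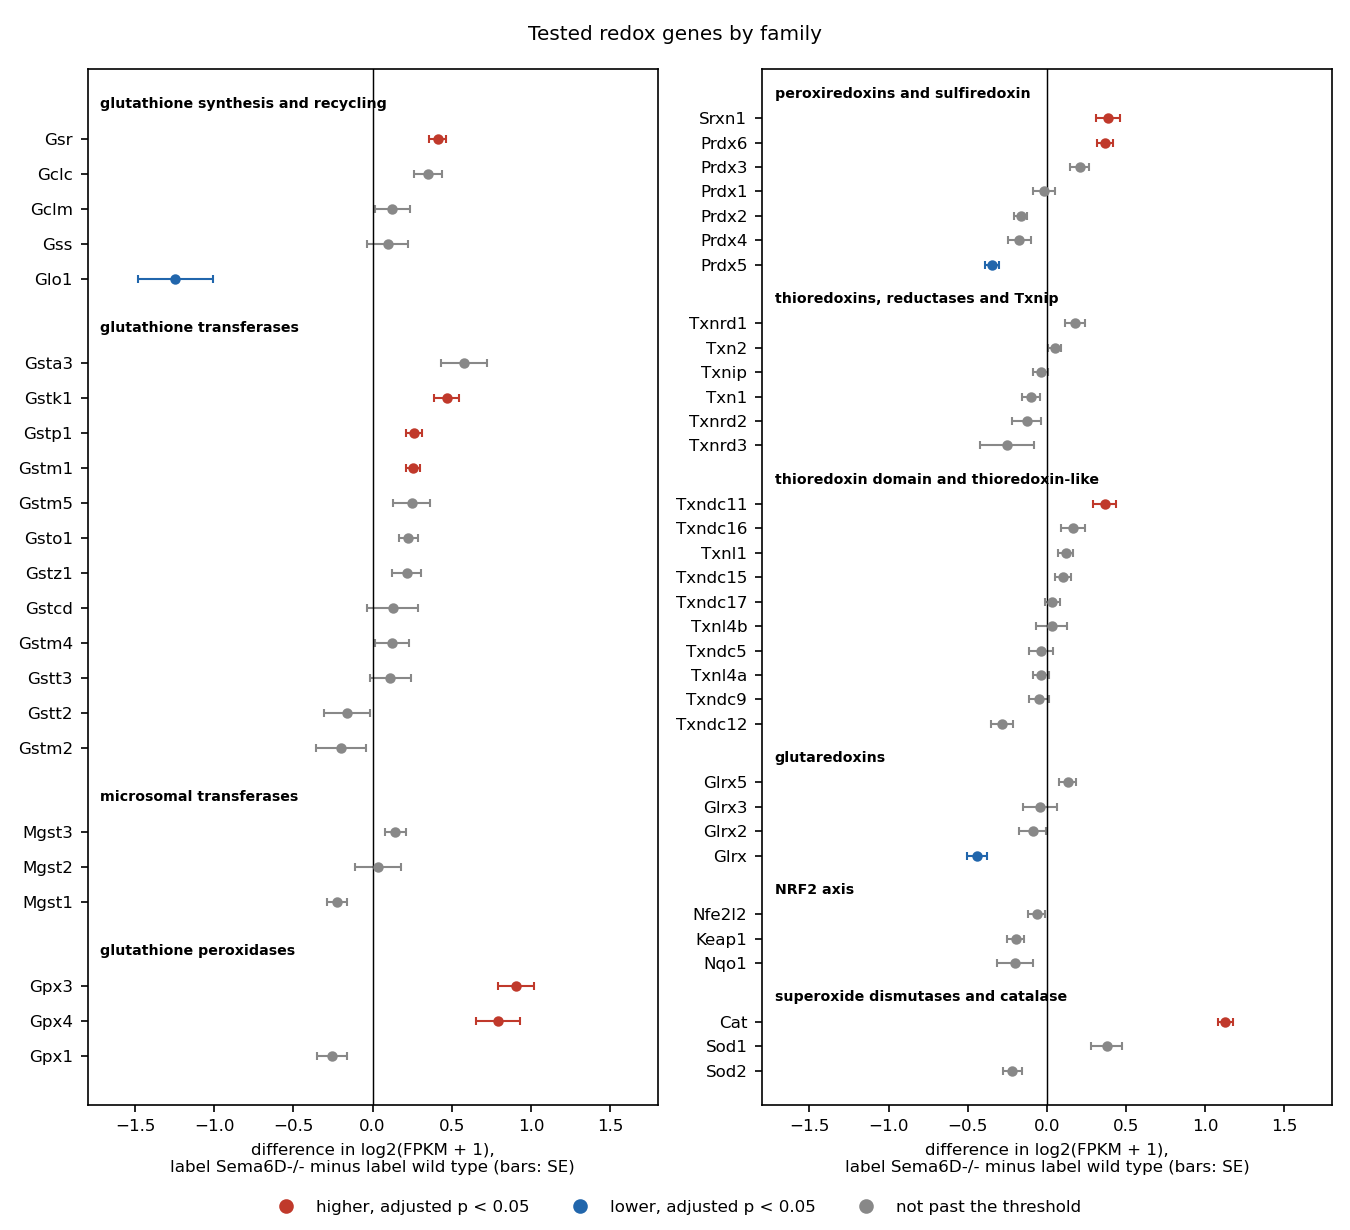
Difference in log2(FPKM + 1) of each of the 56 tested members, Sema6D-/- minus wild type, by family. Points are the limma estimates, bars their standard errors (SE) and colours the calls. Cat stands farthest to the right at 1.13 and Glo1 farthest to the left at -1.25, while the thioredoxins and the NRF2 axis hold no call.

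Catalase made the most firmly measured difference. Cat was at 229 and 232 FPKM in wild type and at 489.8 and 517 FPKM in Sema6D-/-. Both Sema6D-/- libraries were above both wild type libraries by far more than the spread within a label. The mean was 230.2 ± 2.29 against 503 ± 19.3 FPKM (SD, n = 2), 2.19-fold higher, with a difference of 1.13 ± 0.05 (SE) and an adjusted p of 0.000609 by limma. Cat held its call in all 13 alternative settings, and with each library left out the adjusted p was 0.00304 to 0.0106. It took up 2.74% of the summed FPKM of all members in each wild type library and 5.95% and 5.86% in the Sema6D-/- libraries. Cat lies at chr2:103453904-103485153 (GRCm38.p6), 20.6 Mb from Sema6d on the same chromosome. Within 25 Mb of Sema6d 33 of 194 tested genes were called (17.0%), within 10 Mb 21 of 134 (15.7%) and on the whole of chromosome 2 89 of 731 (12.2%), beside 9.72% of all genes. Srxn1, another called member, is also on chromosome 2, from position 152105524. The part of position in the Cat and Srxn1 results was not tested. Erythroid cells are rich in catalase, and the 9 erythroid markers found summed to 1.38 and 0.934 FPKM in wild type and 2.02 and 0.686 FPKM in Sema6D-/-, with overlap between labels. Their part in the Cat result was not tested.

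The promoter of Cat is shown whole because this gene held through every setting. The 300 bases are chr2:103485104-103485403 of RefSeq GRCm38.p6 on the minus strand, and capitals mark the letters CCAAT or, on the other strand, ATTGG.
Cat: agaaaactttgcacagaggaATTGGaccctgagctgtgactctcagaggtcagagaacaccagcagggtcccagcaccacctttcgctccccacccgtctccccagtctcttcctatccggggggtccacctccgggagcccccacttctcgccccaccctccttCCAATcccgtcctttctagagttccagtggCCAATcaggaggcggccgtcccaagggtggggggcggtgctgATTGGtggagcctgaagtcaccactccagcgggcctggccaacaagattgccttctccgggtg
The window held 4 such matches and no TGACNNNGC match. CCAAT in either direction occurred in 37 of 66 members with a window (56.1%), in 41.1% of all genes and in 43.0% of tested genes, so it is common in promoters of all kinds.

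Neither superoxide dismutase was called. Sod1, the cytosolic copper-zinc enzyme, was at 91.2 and 109 FPKM in wild type and 136 and 124 FPKM in Sema6D-/-. Its groups did not overlap, but the difference of 0.38 ± 0.10 did not pass (adjusted p = 0.0770, limma), whereas without wild type 2 it did (0.0332). Sod2, the mitochondrial manganese enzyme, was at 20.1 and 20.2 FPKM in wild type and 17.5 and 16.8 FPKM in Sema6D-/-, a difference of -0.22 ± 0.06 (adjusted p = 0.0847). The FPKM ratio of Sod1 to Sod2 was 4.55 and 5.41 in wild type and 7.78 and 7.39 in Sema6D-/-. The ratio of Cat to Gpx1, the main glutathione peroxidase here, was 0.387 and 0.322 in wild type and 0.880 and 0.964 in Sema6D-/-. Both ratios were higher in each Sema6D-/- library than in either wild type library. Neither ratio was tested, and the labels did not overlap for 56.2% of all genes tested.

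**Figure D2:**
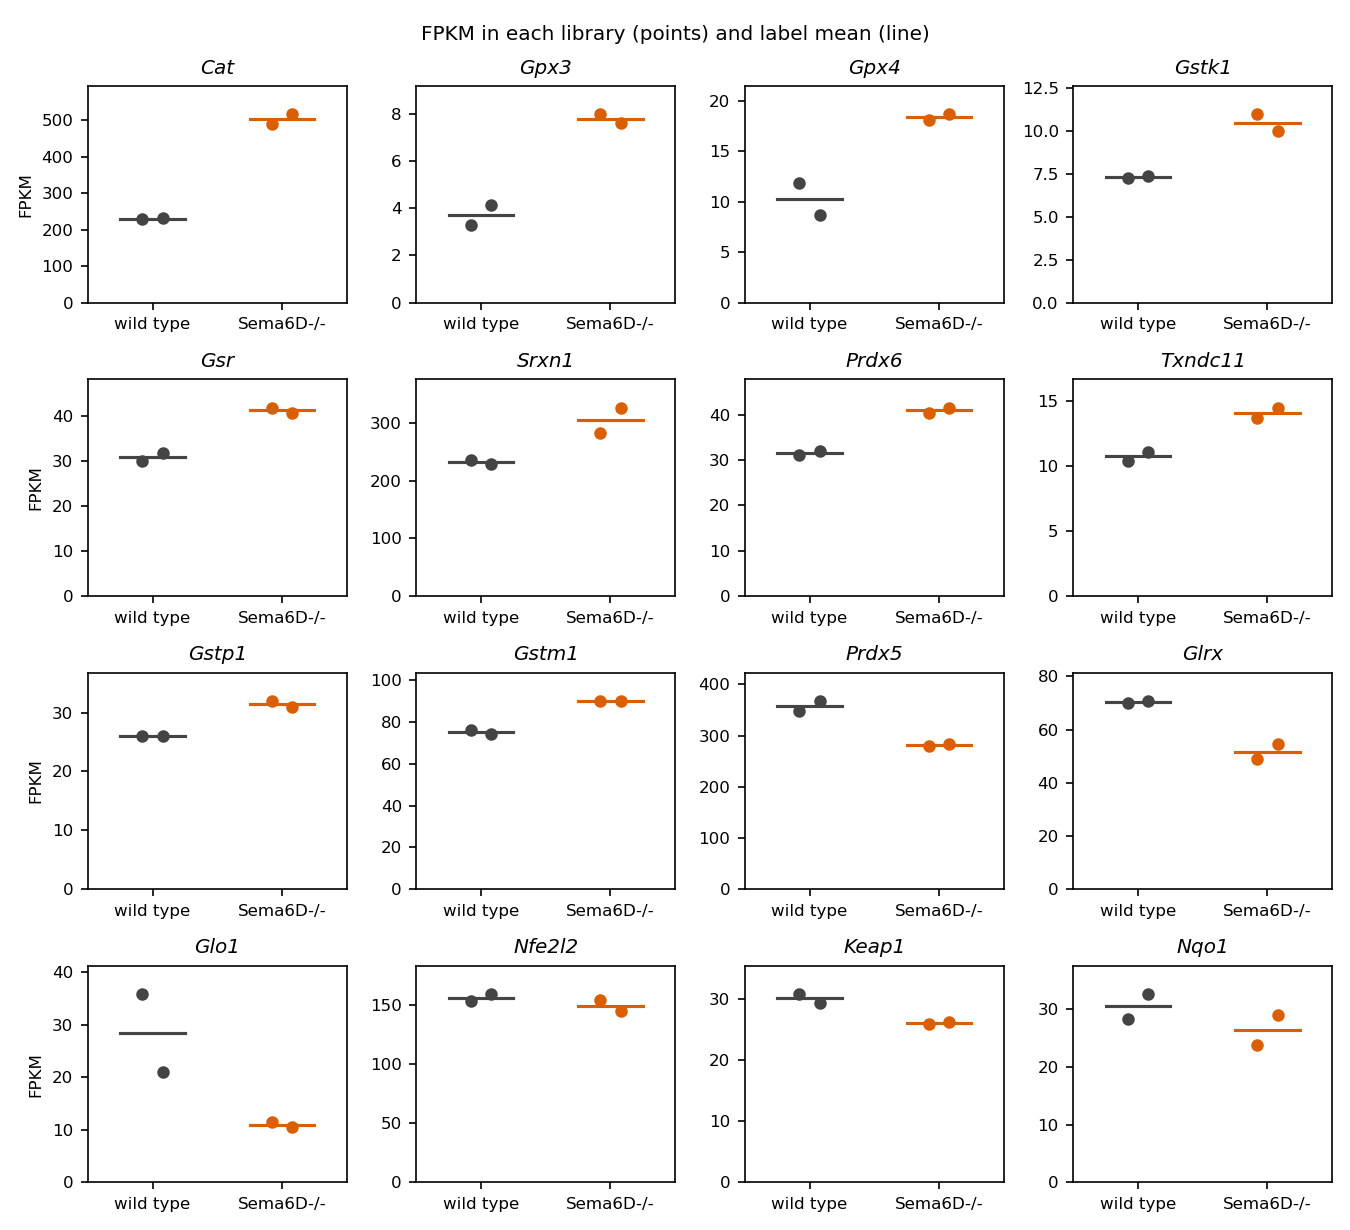
FPKM of selected members in each library (points) with the mean of each label (line), on linear axes that start at 0. The Cat points lie at 229 to 232 FPKM in wild type and 489.8 to 517 FPKM in Sema6D-/-, while the wild type points of Glo1 are spread from 21.0 to 35.8 FPKM.

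The NRF2 axis showed no call by limma in 3 tested genes, with Keap1 at an unadjusted p under 0.05. Nfe2l2 was at 153 and 159 FPKM in wild type and 154 and 144 FPKM in Sema6D-/-, with overlapping groups and a difference of -0.07 ± 0.05 (adjusted p = 0.496, limma). Keap1, the repressor of NRF2, was at 30.7 and 29.3 FPKM in wild type and 25.9 and 26.2 FPKM in Sema6D-/-, a difference of -0.20 ± 0.05 that did not pass (adjusted p = 0.0924). Nqo1, a quinone reductase widely used as a readout of NRF2, was at 28.4 and 32.6 FPKM in wild type and 23.8 and 29.0 FPKM in Sema6D-/-, and its groups overlapped (adjusted p = 0.337). NRF2 is controlled mainly as a protein, which these data do not measure.

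Among the genes of glutathione synthesis and recycling, Gsr was higher and the synthesis enzymes did not pass. Gsr, glutathione reductase, was at 29.9 and 31.6 FPKM in wild type and 41.8 and 40.7 FPKM in Sema6D-/-. The groups were well apart, at 1.34-fold, with a difference of 0.41 ± 0.06 (adjusted p = 0.0134, limma). Gclc, the catalytic subunit of the rate-limiting ligase, was at 29.5 and 29.0 FPKM in wild type and 34.5 and 40.9 FPKM in Sema6D-/-. It did not overlap, but the Sema6D-/- libraries differed from each other and the difference of 0.35 ± 0.09 did not pass (adjusted p = 0.0728). Gclm, the modifier subunit, was at 191 and 189 FPKM in wild type and 185 and 233 FPKM in Sema6D-/-, with the Sema6D-/- libraries on either side of wild type (adjusted p = 0.541). The ratio of Gclm to Gclc was 6.48 and 6.52 in wild type and 5.35 and 5.70 in Sema6D-/-. This ratio was not tested, and the labels did not overlap for 56.2% of all genes tested. Gss, the second enzyme of synthesis, was at 14.5 and 12.8 FPKM in wild type and 12.9 and 16.5 FPKM in Sema6D-/- and overlapped (adjusted p = 0.702).

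Glo1, glyoxalase I, uses glutathione to detoxify methylglyoxal, a by-product of glycolysis. It was at 35.8 and 21.0 FPKM in wild type and 11.5 and 10.5 FPKM in Sema6D-/-. Both Sema6D-/- libraries were below wild type, and the wild type libraries were far from each other. The mean was 28.4 ± 10.5 against 11.0 ± 0.727 FPKM (SD, n = 2), 2.58-fold lower, with a difference of -1.25 ± 0.24 (adjusted p = 0.0342, limma). The size depended on the wild type library: with 1 library left out it lay between -1.62 and -0.87, and the adjusted p between 0.00354 and 0.194. GENCODE holds 2 other genes, 1 of them a pseudogene, with a stretch of at least 200 bases at 95% identity or more to Glo1, and how such reads were shared out is not given in the sources used here. The Glo1 level is therefore uncertain.

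The glutathione peroxidases split. Gpx1, the abundant cytosolic selenoenzyme, was at 591 and 721 FPKM in wild type and 557 and 536 FPKM in Sema6D-/-, a difference of -0.26 ± 0.10 that did not pass (adjusted p = 0.183, limma) but did so without wild type 1 (0.0302) and under quantile normalization. Gpx3, the secreted plasma form, was at 3.30 and 4.13 FPKM in wild type and 7.98 and 7.62 FPKM in Sema6D-/-. It was 2.10-fold higher with separate groups, a difference of 0.90 ± 0.11 (adjusted p = 0.0117), on an estimated 56.1 to 123.4 fragments per library. Gpx4, which reduces lipid hydroperoxides in membranes and guards against ferroptosis, was at 11.9 and 8.73 FPKM in wild type and 18.1 and 18.7 FPKM in Sema6D-/-. It was 1.78-fold higher, a difference of 0.79 ± 0.14 (adjusted p = 0.0280), and 2 near-identical pseudogenes make its level uncertain. Without either Sema6D-/- library neither gene passed, with adjusted p up to 0.114 for Gpx3 and 0.179 for Gpx4. Because Gpx1 carries most of the reads, the family sum was 607 and 735 FPKM in wild type and 583 and 563 FPKM in Sema6D-/-, in the direction opposite to that of both called members. Of the 6 selenoproteins among the tested members (Gpx1, Gpx3, Gpx4, Txnrd1, Txnrd2 and Txnrd3), Gpx3 and Gpx4 were called. Beside this, 23.2% of all tested members and 9.72% of all genes tested were called.

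Gstm1, Gstp1 and Gstk1 were the called transferases, all higher in Sema6D-/-. Of 22 cytosolic and mitochondrial transferase symbols 12 were tested, 10 of which had a difference above 0, with 3 called higher and none lower by limma (5 higher and 0 lower at an unadjusted p under 0.05). Beside this, 50.9% of all genes tested had a difference above 0. The median of the 12 was 0.22, and the summed level was 235 and 239 FPKM in wild type and 284 and 278 FPKM in Sema6D-/-, 18.7% higher. Gstm1, a mu class enzyme, was at 76.4 and 74.4 FPKM in wild type and 90.0 and 90.3 FPKM in Sema6D-/-, 1.20-fold higher with little spread within a label (difference 0.25 ± 0.04, adjusted p = 0.0268, limma). Gstp1, the pi class enzyme, was at 26.1 and 26.1 FPKM in wild type and 32.0 and 30.9 FPKM in Sema6D-/- (difference 0.26 ± 0.05, adjusted p = 0.0398). Its near-identical neighbour Gstp2 was listed at 0 in every library, so the pair cannot be told apart. Gstk1, a kappa class enzyme of mitochondria and peroxisomes, was at 7.24 and 7.35 FPKM in wild type and 11.0 and 9.995 FPKM in Sema6D-/-, 1.44-fold higher (difference 0.47 ± 0.08, adjusted p = 0.0259) on an estimated 99.6 to 137.4 fragments. None of the 3 passed with any library left out, where adjusted p lay between 0.0626 and 0.224.

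The remaining transferases did not pass. Gsto1, an omega class enzyme with thioltransferase activity and the most abundant of the family, was at 91.8 and 101 FPKM in wild type and 112 and 113 FPKM in Sema6D-/- (difference 0.23 ± 0.06, adjusted p = 0.0798, limma). Gsta3, an alpha class enzyme, was at 3.60 and 3.94 FPKM in wild type and 7.10 and 5.26 FPKM in Sema6D-/- (difference 0.58 ± 0.14, adjusted p = 0.0717). Neither gene overlapped between labels. Gstm4, Gstm5, Gstz1, Gstt3 and Gstcd had differences of 0.11 to 0.25, and Gstm2 and Gstt2 of -0.20 and -0.16. The microsomal transferases, membrane proteins of another fold, held no call by limma among 3 tested, with Mgst1 alone at an unadjusted p under 0.05 (lower). Mgst1, with an antioxidant response element match in the window shown above, was at 295 and 329 FPKM in wild type and 262 and 269.7 FPKM in Sema6D-/- (difference -0.23 ± 0.06, adjusted p = 0.0942), and passed under quantile normalization and without wild type 1 (0.0461). Mgst3 was at 46.4 and 48.1 FPKM in wild type and 49.5 and 55.4 FPKM in Sema6D-/- (adjusted p = 0.265), and Mgst2 overlapped between labels at 2.89 to 3.90 FPKM.

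The peroxiredoxin group held calls in both directions. Prdx1 was the most abundant member, at 3914 and 3835 FPKM in wild type and 3613 and 4040.2 FPKM in Sema6D-/-, 43.9% to 46.9% of the summed FPKM of all members. The Sema6D-/- libraries lay on either side of wild type, with a difference of -0.02 ± 0.07 (adjusted p = 0.890, limma). Srxn1, which repairs over-oxidized peroxiredoxins, was at 237 and 229 FPKM in wild type and 283 and 328 FPKM in Sema6D-/-. It was 1.31-fold higher with separate groups (difference 0.39 ± 0.08, adjusted p = 0.0387). The ratio of Prdx1 to Srxn1 was 16.5 and 16.8 in wild type and 12.8 and 12.3 in Sema6D-/-. This ratio was not tested, and with a Prdx1 difference of -0.02 it largely restates the Srxn1 difference. Prdx6, the 1-cysteine peroxiredoxin that also acts on phospholipids, was at 31.2 and 32.0 FPKM in wild type and 40.4 and 41.6 FPKM in Sema6D-/-, 1.30-fold higher (difference 0.37 ± 0.05, adjusted p = 0.0145). Prdx5, found in mitochondria, peroxisomes and cytosol, went the other way, at 348 and 368 FPKM in wild type and 279 and 283 FPKM in Sema6D-/-, 1.27-fold lower (difference -0.35 ± 0.05, adjusted p = 0.0137). Its exons overlap Trmt112, which did not pass at 22.2 against 20.4 FPKM. The 1 gene found with a near-identical stretch may be Trmt112 itself, as the search did not set apart overlapping genes. Prdx2 was at 221 and 225 FPKM in wild type and 199 and 198 FPKM in Sema6D-/- (adjusted p = 0.0687), and neither mitochondrial Prdx3 (difference 0.21, adjusted p = 0.101) nor Prdx4 of the endoplasmic reticulum (difference -0.17, adjusted p = 0.212) passed. With a library left out, adjusted p reached 0.119 for Srxn1, 0.107 for Prdx6 and 0.121 for Prdx5.

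The thioredoxins, their reductases and their inhibitor showed no call by limma in 6 tested genes, with Txnrd1 at an unadjusted p under 0.05. Txn1, cytosolic thioredoxin, was at 369 and 348 FPKM in wild type and 323 and 346 FPKM in Sema6D-/- (difference -0.10 ± 0.06, adjusted p = 0.340, limma). Txnrd1, its reductase, was at 204 and 205 FPKM in wild type and 218 and 244 FPKM in Sema6D-/- (difference 0.17 ± 0.06, adjusted p = 0.168). The ratio of Txnrd1 to Txn1 was 0.553 and 0.588 in wild type and 0.674 and 0.707 in Sema6D-/-, without overlap. This ratio was not tested, and the labels did not overlap for 56.2% of all genes tested. Txnip, which binds and inhibits thioredoxin and is induced by glucose, overlapped at 242 and 258 FPKM in wild type and 245 and 241 FPKM in Sema6D-/- (adjusted p = 0.672). Mitochondrial Txn2 was at 114 and 112 FPKM in wild type and 116 and 117 FPKM in Sema6D-/- (adjusted p = 0.542). The other two reductases, Txnrd2 and Txnrd3, had differences of -0.13 and -0.25 and did not pass. Sod2, Prdx3, Txn2, Txnrd2, Glrx2 and Glrx5 are mitochondrial members, a group chosen after their values were seen. By limma 0 of these 6 were called, beside 9.72% of all genes, and 2, Prdx3 and Sod2, had an unadjusted p under 0.05. Because of that choice the count is no result about mitochondrial genes. The group leaves out members found in mitochondria and elsewhere, such as Gstk1 and Prdx5, which were both called.

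Among 14 thioredoxin domain and thioredoxin-like symbols, 10 were tested and 1 was called. Txndc11, a protein of the endoplasmic reticulum, was at 10.4 and 11.1 FPKM in wild type and 13.7 and 14.5 FPKM in Sema6D-/-, 1.31-fold higher (difference 0.36 ± 0.07, adjusted p = 0.0388, limma, and up to 0.213 with a library left out). Its exons overlap Snn, which lay at 6.78 against 6.76 FPKM. Txndc12, another protein of the endoplasmic reticulum, was at 54.0 and 48.5 FPKM in wild type and 40.7 and 43.0 FPKM in Sema6D-/- and did not pass (adjusted p = 0.0660). The most abundant of the group, Txndc17 and Txnl4a, had differences of 0.03 and -0.04, and Txndc5, Txndc9, Txndc15, Txndc16, Txnl1 and Txnl4b lay between -0.05 and 0.17. Of the 4 glutaredoxins Glrx was lower. Glrx, the cytosolic enzyme that removes glutathione from protein thiols, was at 70.1 and 70.8 FPKM in wild type and 49.0 and 54.5 FPKM in Sema6D-/-. It was 1.36-fold lower with separate groups (difference -0.44 ± 0.06, adjusted p = 0.0170, and up to 0.0932 with a library left out). Glrx5, which serves iron-sulfur cluster assembly in mitochondria, was at 35.9 and 35.4 FPKM in wild type and 40.2 and 38.1 FPKM in Sema6D-/- (adjusted p = 0.210), and Glrx2 and Glrx3 had differences of -0.09 and -0.04.

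**Figure D3:**
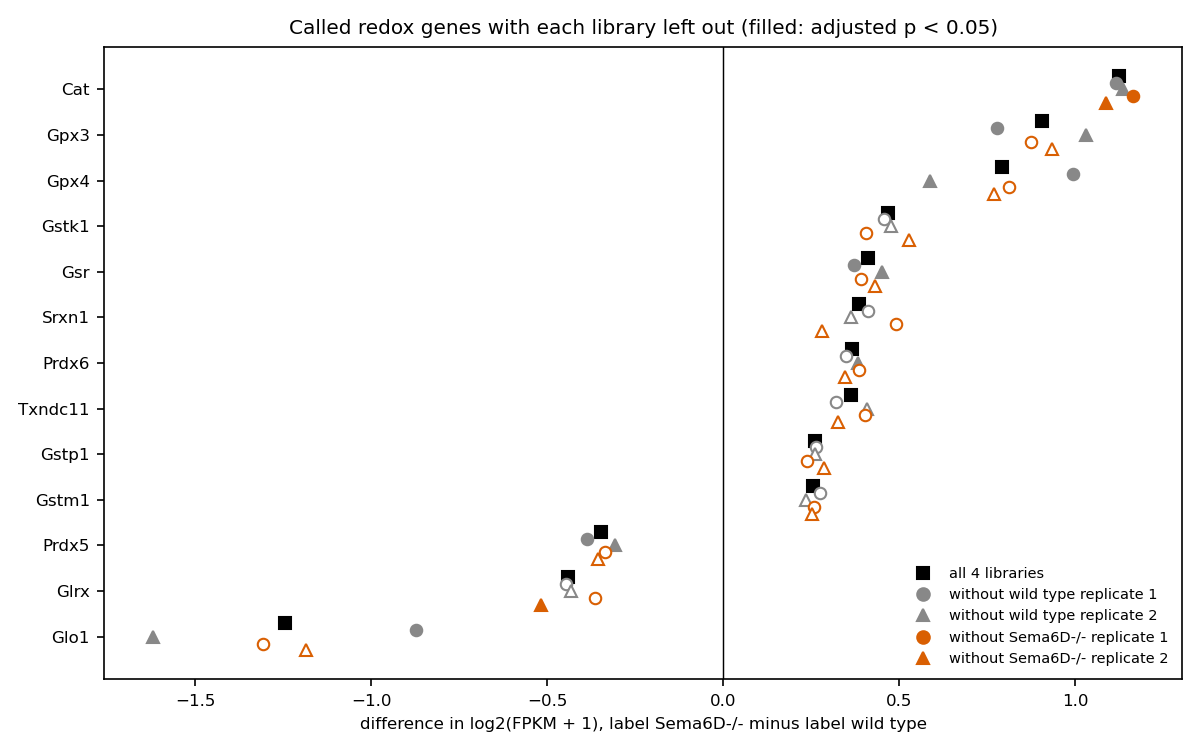
Difference in log2(FPKM + 1) of the 13 called members with all 4 libraries and with each library left out. Filled symbols have an adjusted p under 0.05. Every symbol of a gene lies on 1 side of 0, which was fixed because the libraries of the labels did not overlap for these genes. Cat alone is filled in all 4 omissions.

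The 13 called members differ in how directly their values can be read. Cat and Glo1 were the only ones with a difference of at least 1 in size. Near-identical transcripts of other genes touched 5 of the 13 (Glo1, Gpx4, Gstm1, Gstp1 and Prdx5), beside 17 of the 56 tested. Exon positions were shared with another gene in 3 of the 13. The search for near-identical transcripts did not set apart such overlapping genes, so the same gene can count in both. The 7 with neither were Cat, Glrx, Gpx3, Gsr, Gstk1, Prdx6 and Srxn1. Of 15 members averaging 100 FPKM or more, Cat, Srxn1 and Prdx5 were called, beside 23.2% of all tested members and 9.72% of all genes.

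Genes that work with these systems were described from 7 lists of 72 symbols in all, of which 63 were tested. Here 7 of 63 were higher and 6 of 63 lower, beside 4.8% and 4.91% of all genes. In either direction it was 13 of 63, beside 9.72% of all genes, and the median difference was 0.01. The same shares of all genes stand beside the counts by list that follow. In the supply of the building blocks, Slc7a11, the cystine importer that feeds glutathione synthesis, was at 7.23 and 7.38 FPKM in wild type and 4.09 and 4.29 FPKM in Sema6D-/-. It was 1.74-fold lower (difference -0.68 ± 0.08, adjusted p = 0.0110, limma), the 1 call among 3 tested genes of cystine supply. In glutathione breakdown and export 2 of 10 tested genes were higher and 1 lower. Chac1, which cleaves glutathione in the cytosol, was at 0.517 and 1.37 FPKM in wild type and 3.88 and 3.90 FPKM in Sema6D-/-, 4.12-fold higher at a low level (difference 1.37 ± 0.23, adjusted p = 0.0241). Its fold was 2.83 without wild type 1 and 7.52 without wild type 2, and the call was lost without either Sema6D-/- library (adjusted p up to 0.158). Cndp2, a dipeptidase that splits cysteinylglycine, was at 194 and 190.4 FPKM in wild type and 315 and 309.5 FPKM in Sema6D-/-, 1.62-fold higher (difference 0.70 ± 0.04, adjusted p = 0.00159). Dpep2, a membrane dipeptidase, was lower, at 360.1 and 330.0 FPKM against 251 and 274 FPKM (adjusted p = 0.0260).

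NADPH, which Gsr and the thioredoxin reductases consume, comes from several enzymes. Of 12 tested genes of its supply, Pgd of the pentose phosphate pathway was higher (380.3 and 395 FPKM in wild type, 453 and 477 FPKM in Sema6D-/-, adjusted p = 0.0335, limma). Nnt, the mitochondrial transhydrogenase, was 1.79-fold lower, at 8.06 and 7.94 FPKM in wild type and 4.64 and 4.32 FPKM in Sema6D-/- (difference -0.72 ± 0.08, adjusted p = 0.00960). G6pdx, the entry enzyme of the pathway, did not pass at 165 and 158 FPKM against 143 and 150.4 FPKM (adjusted p = 0.163). On the oxidant side 2 of 7 tested genes were lower, both of the phagocyte NADPH oxidase. Cybb, its catalytic subunit, was at 279 and 290.1 FPKM in wild type and 162 and 174 FPKM in Sema6D-/-, 1.70-fold lower (difference -0.76 ± 0.05, adjusted p = 0.00246). Ncf4, its p40phox subunit, was at 348 and 352 FPKM in wild type and 183 and 181 FPKM in Sema6D-/-, 1.92-fold lower (difference -0.94 ± 0.04, adjusted p = 0.000697). Cndp2 and Ncf4 passed in all 13 alternative settings and Cybb in 12 of them, the exception being the fit without a filter. Neutrophils also express the oxidase. Of their list, S100a8 (75.6 against 264 FPKM) and S100a9 (94.2 against 316 FPKM) were higher and make up most of its sum, while Csf3r (35.2 against 21.6 FPKM) and Mmp9 (23.6 against 9.35 FPKM) were lower. The part of neutrophils in the oxidase result was not tested.

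Of 9 tested partners and regulators of NRF2, 2 were higher. Sqstm1, the autophagy receptor that binds KEAP1, was at 344 and 362 FPKM in wild type and 450.1 and 459 FPKM in Sema6D-/- (difference 0.37 ± 0.05, adjusted p = 0.0121, limma). Bach1, a repressor that competes at the antioxidant response element, was at 28.7 and 30.0 FPKM in wild type and 34.7 and 36.3 FPKM in Sema6D-/- (difference 0.27 ± 0.06, adjusted p = 0.0450). Among 13 other tested targets of NRF2, Osgin1 (28.5 and 28.5 FPKM against 36.2 and 36.3 FPKM, adjusted p = 0.0171) and biliverdin reductase Blvra (139.7 and 139 FPKM against 160.2 and 164 FPKM, adjusted p = 0.0346) were higher. Ephx1, microsomal epoxide hydrolase, was lower, at 79.9 and 84.5 FPKM against 61.9 and 65.6 FPKM (adjusted p = 0.0194). Hmox1, heme oxygenase 1, did not pass at 576 and 537 FPKM against 625 and 665 FPKM (difference 0.21 ± 0.06, adjusted p = 0.0885). None of 9 tested genes of methionine sulfoxide repair and selenoprotein synthesis was called by limma, and 4 had an unadjusted p under 0.05. Of these 4, 1 was higher and 3 lower. The same cut was met by 4 of the 9 partners and regulators, all higher. It was met by 6 of the 13 other targets, 5 higher and 1 lower. The share of all genes at this cut is not given here or above, so these counts stand without a background. Apart from Cndp2, Ncf4 and Cybb, each of the 13 calls was lost without at least 1 library. With wild type 1, wild type 2, Sema6D-/- 1 and Sema6D-/- 2 left out in turn, 3, 3, 1 and 1 of these genes were higher and 9, 4, 2 and 2 lower.

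**Figure D4:**
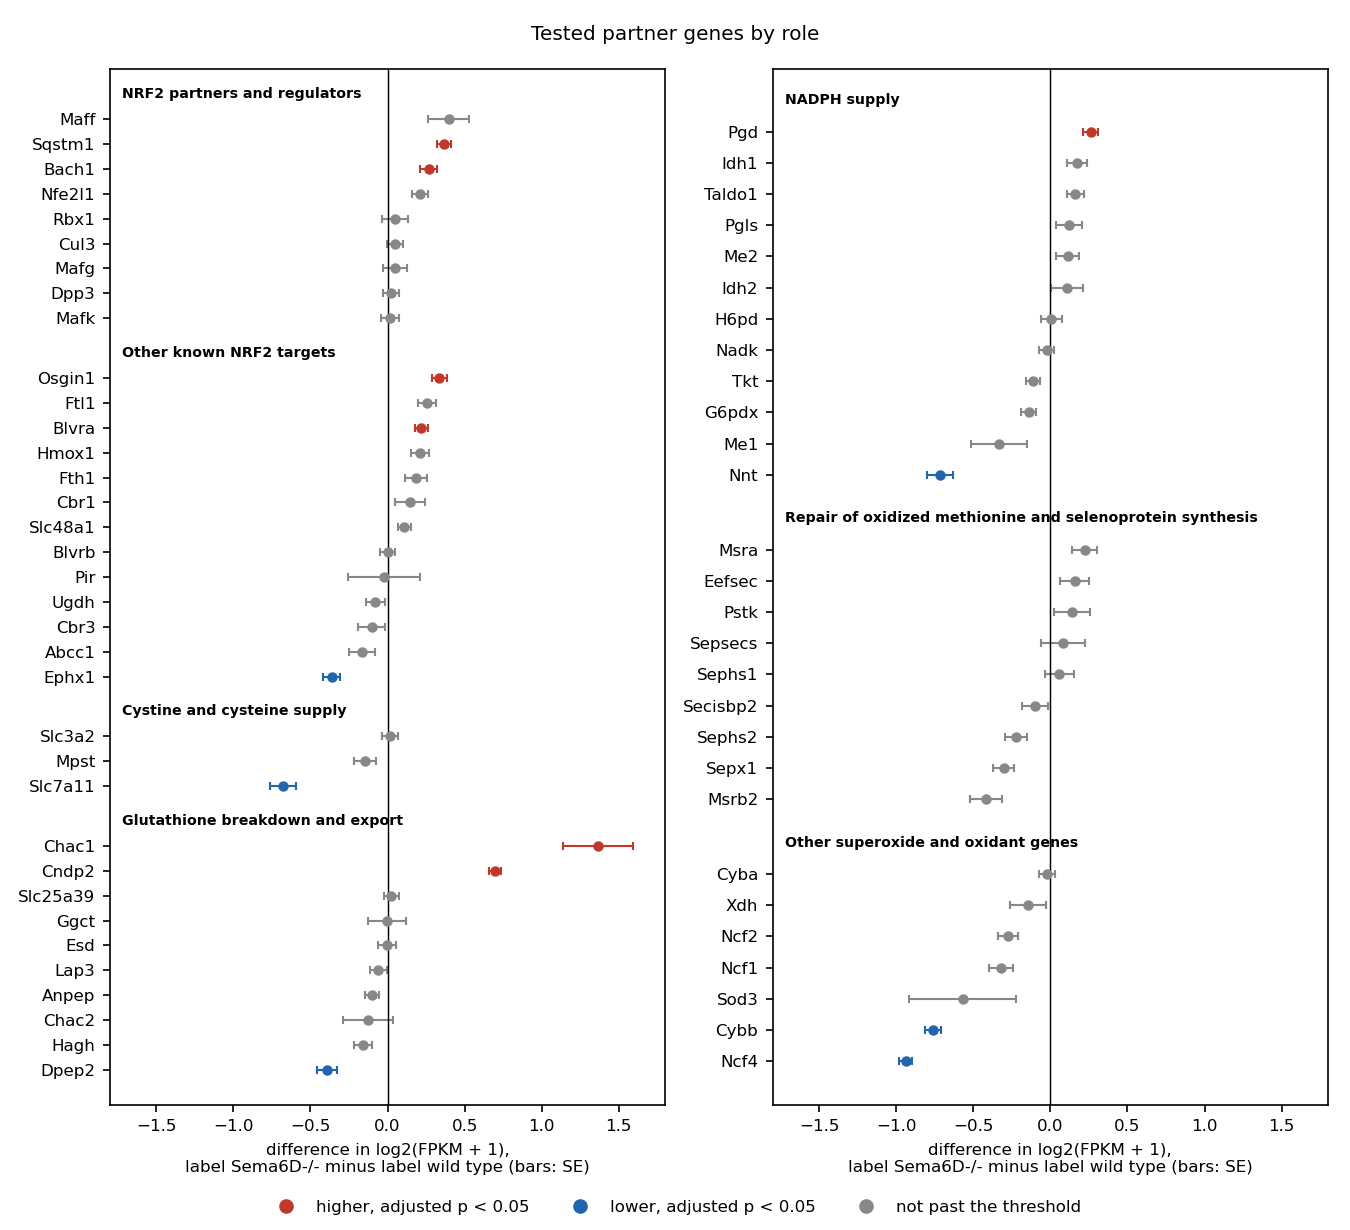
Difference in log2(FPKM + 1) of the 63 tested partner genes, Sema6D-/- minus wild type, by list, with standard errors as bars and calls in colour. Chac1 lies highest at 1.37 among the called genes, and both called oxidase genes, Cybb and Ncf4, lie below -0.7.

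The other 21 members were below the filter. Of these 12 were listed at 0 in every library: Gpx2, Gpx2-ps1, Gpx5, Gpx6, Gsta1, Gstm3, Gstp2, Gstt4, Prdx6b, Txndc3, Txndc6 and Txndc8. In these files an exact 0 can be a failed estimate, so they are given only as listed. The remaining 9 (Gpx7, Gpx8, Gsta2, Gsta4, Gstm6, Gstm7, Gsto2, Gstt1 and Txndc2) reached at most 1.10 FPKM in any library. Gpx7, a peroxidase of the endoplasmic reticulum, was at 0.400 and 0.586 FPKM in wild type and 0.219 and 0.211 FPKM in Sema6D-/-, and Gpx8, its relative, at 0.373 and 1.10 FPKM against 0.272 and 0.394 FPKM. Neither was tested, and the Gpx7 values rest on an estimated 2.4 to 7.2 fragments per library.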

How the data were processed

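The 4 libraries were deposited as separate lists of symbols and FPKM. The authors deposited FPKM made with Cuffnorm 2.2.1 after TopHat2 2.0.13, Bowtie2 2.2.3 and SAMtools 0.1.19 on mm10, per the submitters' processing notes. The annotation, the strand setting and the handling of reads with several matches were not given in the sources used here. Libraries were strand-specific and RNA came from a microRNA isolation kit, per the labels' protocols. Of 23284 symbols, 25 had no value. Depth was estimated from the steps between low FPKM values and GENCODE exon lengths (1 fragment on 1 kb was worth 0.105 to 0.1173 FPKM).

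From these values limma 3.58.1 (R 4.3.3; lmFit, eBayes with trend, two-sided) was run on log2(FPKM + 1) over 10115 genes averaging 1 FPKM or more, with Benjamini-Hochberg adjustment over all of them and a threshold of 0.05. Differences on this scale understate the change of low genes. Near-identical transcripts (95% identity over 200 bases) were found with BLAST+ 2.17.0. Alternatives were other pseudocounts, filters, scalings and variance settings, a replicate block and each library left out.

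Named genes are all called members, the 3 most abundant of each family, a fixed set of core redox genes, and of the partner genes the called ones with Slc7a11, Hmox1 and G6pdx. Other names are given by values only. The members and lists were chosen with earlier results of these data known. RefSeq positions were found for 75 of 77 members.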

Additional observations from a re-analysis of the deposited data

How the results depend on the processing

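Of the 13 called members none changed sign in any of 13 alternatives, and Cat alone kept its call in all of them. The libraries of the labels did not overlap for any of these 13. Leaving out 1 library could therefore not turn their sign, and the constant sign is no check of these differences. Beside 10 members higher and 3 lower, the fit without a filter called 2 higher (Cat and Gstm7) and 1 lower (Gsta2), with 214 of 23259 genes called; Gstm7 and Gsta2 rest on an estimated 0.0 to 2.7 fragments per library. eBayes without trend gave 5 and 0, with 588 genes called, and quantile normalization 8 and 5, adding Gpx1 and Mgst1 as lower. The replicate block pairs libraries by title number. It gave 5 higher and 3 lower members, 4 and 6 partner genes, and 637 calls in all. No label says that a number marks a shared batch. Over 10115 genes the deviations of same-numbered libraries correlated at -0.0183, so these libraries did not deviate together. Leaving out 1 library gave 1 to 6 members higher and 0 to 4 lower, and 1 to 3 partner genes higher and 2 to 9 lower. Partner genes were 2 higher and 1 lower without a filter, 3 higher without trend, and 10 lower with robust estimation. The cause of these moves was not tested.

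Differences that changed sign with a library left out were all of uncalled genes: Gclm (-0.0422 to 0.29), Glrx3 (-0.19 to 0.10), Gss (-0.0719 to 0.26), Gstcd (-0.0842 to 0.34), Gstt2 (-0.33 to 0.0049), Gstt3 (-0.0027 to 0.23), Mgst2 (-0.13 to 0.20), Prdx1 (-0.10 to 0.0605), Txndc5 (-0.12 to 0.0432), Txnip (-0.0853 to 0.0060), Txnl4a (-0.0831 to 0.0062) and Txnl4b (-0.0563 to 0.11). A fit with 1 library of a label assumes that it varies like the other label. No depth is stated for the deposited values, which limits most the members of a few FPKM.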
